A study of Apis mellifera with 13 samples.

Results

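A set of 793 short regions of the honey bee genome was described, in which the same stretch of DNA was listed as differing in methylation between ethanol fed and control bees and again between bees fed curcumin with ethanol and bees fed ethanol alone. The members were selected on the authors' lists of regions, as those of 2 to 9 CpGs whose chromosome, start and end were identical for both comparisons. Every region on these lists had a mean difference of at least 0.1 in size, and the measured differences therefore chose the members. The list for ethanol against control holds 8887 regions, of which 5375 have 2 to 9 CpGs, and the list for curcumin and ethanol against ethanol holds 9689, of which 5820 have 2 to 9 CpGs. In all, 1829 regions of any length had identical bounds, and the 1036 that are no members consist of 1018 single CpGs and 18 regions of 10 or more CpGs. Being listed in both comparisons already requires a difference in both, so that the differences below describe the members and were not tested.

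Whole genome bisulfite sequencing had been carried out on abdominal DNA (carcass with adhering fat body) of 13 *Apis mellifera* workers of the strain carnica. Of these, 5 received the control diet, 5 the same diet with 1% (v/v) ethanol and 3 the diet with 1% (v/v) ethanol and 100 µg/ml curcumin, for 10 days. All 3 groups were winter workers and shared the sugar, amino acid and lipid feed. The control bees came from cages AG (2 bees) and BG (3 bees), the ethanol bees from cages A (2 bees) and B (3 bees), and the curcumin and ethanol bees from cages C (1 bee) and D (2 bees), so that diet and cage cannot be told apart. No group received curcumin without ethanol. The lists give 1 difference per region and comparison and 0 columns of single bees, and the depth behind a region is not known from them. No spread between bees can therefore be attached to any difference, and no region is called significant here.

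In the honey bee, DNA methylation is sparse and lies mostly at CpGs in the exons of genes that are broadly expressed. It is set by the DNA methyltransferase Dnmt3, kept through cell division by Dnmt1 and can be oxidised by Tet. The fat body, which lines the abdomen, combines tasks of liver and adipose tissue and is the main site of energy storage and detoxification. Curcumin is the yellow polyphenol of turmeric. Bisulfite treatment turns cytosine into uracil unless it is methylated, and the methylation level of a CpG is the fraction of its reads that kept the cytosine.

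The quantities followed for each member were differences in methylation between 2 groups of bees, summed by the authors over the CpGs of the region and divided by their number. Their scale is not named in the lists. By the methods it may be that of arcsine transformed levels, but the values, which reach 0.865 per CpG in size, would also fit plain fractions. The first is ethanol minus control, and the second is curcumin and ethanol minus ethanol. Their sum is the third and estimates curcumin and ethanol minus control, since the ethanol bees cancel out where the same CpGs enter both. The number of CpGs was the same in both lists for all 793 members, and the CpG cluster around the member had the same number of CpGs in 786. The differences are therefore given on the authors' scale and are not turned into percentage points. Which group was subtracted is not named either, and the direction follows the mean difference that the lists hold beside the sums, taken from the study's account as ethanol minus control and as curcumin and ethanol minus ethanol. Because the ethanol bees are added in the first difference and subtracted in the second, opposite signs and a sum near 0 also arise where nothing but sampling of the ethanol bees moved. These cases cannot be told apart here.

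With ethanol, 420 members were higher than in control bees and 373 were lower, beside 4476 higher (50.4%) among all 8887 regions of that comparison. The size of this difference had a median of 0.194 (quartiles 0.149 and 0.267) and reached 0.853. With curcumin added to ethanol, 383 members were higher and 410 lower than with ethanol alone, beside 4693 higher (48.4%) among all 9689 regions. Nothing is read from these counts of direction. The median size of the second difference was 0.214 (quartiles 0.152 and 0.289, largest 0.807). The sum was smaller than either, with a median size of 0.0718 (quartiles 0.0330 and 0.148). It was above 0 in 407 members, below 0 in 384 and exactly 0 in 2, and its signed median was 0.00342. The sum lay within 0.1 of 0 in 481 members, or 60.7% of them, and ran from -0.512 to 0.703. Over all 1829 regions with identical bounds, members included, the median size of the sum was 0.0897. Most of those regions thus also lay within 0.1 of 0. The 1018 single CpGs among them, which are no members, had a median size of 0.1002, just above this limit. The share within 0.1 was not counted outside the members and is not read as a trait of them.

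**Figure D1:**
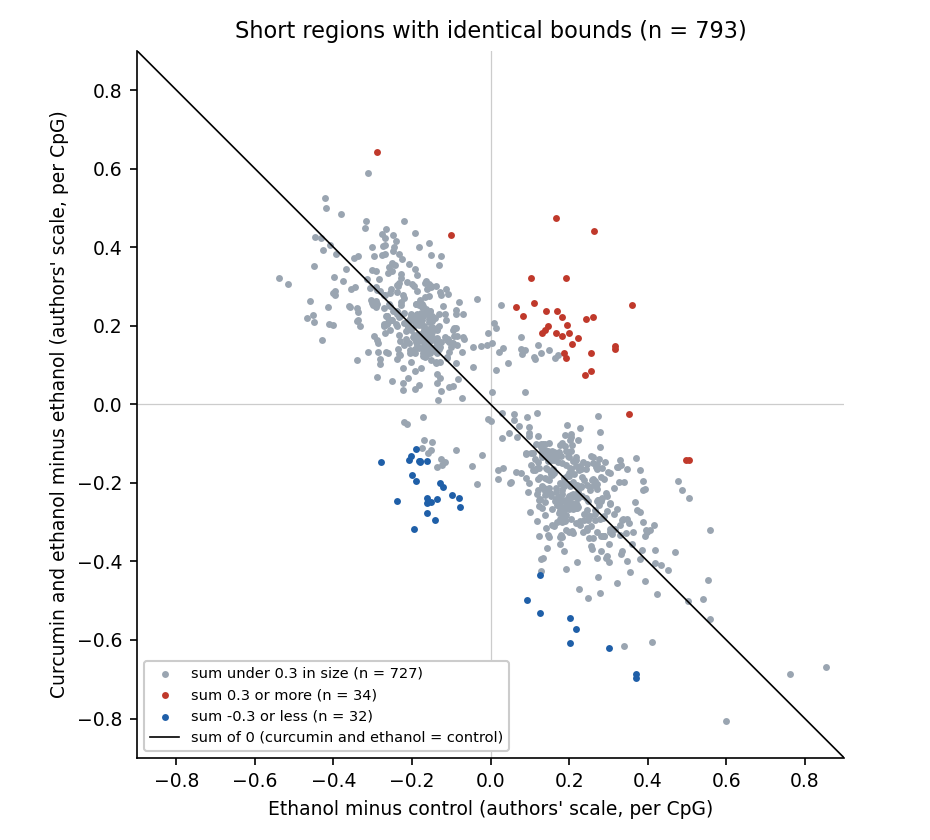
Difference per CpG (authors' scale) between ethanol and control bees (x axis) and between curcumin and ethanol and ethanol bees (y axis) for the 793 short regions with identical bounds, each point being 1 region. On the diagonal line the sum is 0, and the 34 red and 32 blue points are the regions whose sum is at least 0.3 above or below 0; the ethanol bees enter both axes.

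The sum was centred close to 0 for both directions with ethanol. Among the 420 members that were higher with ethanol, the median was 0.202 against control bees, and it was -0.211 when curcumin and ethanol bees were set against ethanol bees. Their median sum was 0.00564, and the quartiles of the sum were -0.0673 and 0.0849. For the 373 members that were lower with ethanol, the corresponding medians were -0.188, 0.202 and 0.00264, and the quartiles of the sum were -0.0701 and 0.0674. The control bees enter both the first difference and the sum, and the ethanol bees both differences, so that these medians are not independent of one another.

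A difference of at least 0.3 per CpG was used to count large differences. Ethanol minus control was at least 0.3 in 78 members (9.84%) and at most -0.3 in 47 (5.93%), where 5.38% and 5.28% of all 8887 regions of that list did so. For curcumin and ethanol minus ethanol the members numbered 72 higher (9.08%) and 97 lower (12.2%), beside 6.51% and 7.06% of all 9689 regions. The listing in both comparisons used these same differences, so that nothing is read from the larger shares. The sum was at least 0.3 in 34 members (4.29%) and at most -0.3 in 32 (4.04%), beside 6.07% and 5.63% of all 1829 regions with identical bounds.

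The genome sequence and gene models of Amel 4.5 were not analysed here, so that the regions are given by their position alone. Linkage groups are the honey bee chromosomes of that build. Positions are as the authors list them, in which a single CpG spans 1 bp.

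The largest difference of any member between ethanol and control bees, 0.853 per CpG, belonged to 2 CpGs within 24 bp on linkage group 6 (12440586 to 12440610), in a cluster of 11 CpGs. With curcumin the same CpGs were lower than with ethanol by 0.669, and the sum was 0.185. The next member on linkage group 6 begins 2557 bp further on (12443167 to 12443711), in another cluster, of 13 CpGs. Its 4 CpGs differed by 0.501 between ethanol and control bees and by -0.501 between curcumin and ethanol and ethanol bees, and the sum was 0, within a tolerance of 1e-09. In both stretches the ethanol bees were thus above the control bees and above the curcumin and ethanol bees. The curcumin and ethanol bees were above the control bees in the first stretch and level with them in the second.

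A sum of exactly 0 means that the control bees and the curcumin and ethanol bees had the same summed level over these CpGs. It was also found in 1 other member, 2 CpGs on linkage group 8 (10175746 to 10175756), where the differences were 0.233 and -0.233, and in 6 single CpGs outside the set. In all 8 of these regions the ethanol bees were higher. The lists give differences and no levels, so that both other groups may have had no methylation there. A CpG was kept where 3 samples or more reached 10% methylation, which the ethanol bees alone could meet. With no methylation in both other groups, the ethanol bees could only be higher. Whether this was so was not tested, and nothing is read from the shared direction. The linkage group 8 member is outside the rule for named regions and was picked for its sum.

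Next in size among the members higher with ethanol was a pair of CpGs on linkage group 5 (4923088 to 4923102), inside a cluster of 74 CpGs, where ethanol bees were 0.762 above control bees. The difference with curcumin was -0.686 and the sum 0.0756. By the listed mean difference, curcumin and ethanol minus ethanol was -0.165 and the sum 0.499 in this pair, so that the sum near 0 depends on the measure. On linkage group 10 (7028093 to 7028349), 2 CpGs differed by 0.600 between ethanol and control bees. These CpGs also had the lowest value of any member with curcumin, -0.807, and the sum of -0.208 placed the curcumin and ethanol bees below the control bees. Of the members among these with more than 2 CpGs, the linkage group 4 region from 3605133 to 3605224 had 3, at 0.560 and -0.548, and its sum of 0.0120 was the closest to 0 of the 5 largest. The last of the 5, 2 CpGs on linkage group 6 (17672795 to 17673116), differed by 0.557 and -0.319 and had a sum of 0.238, which was 0.0767 by the listed mean difference.

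The members that were lowest with ethanol included longer regions. The lowest was a pair of CpGs on linkage group 14 (625292 to 625305), within a cluster of 60 CpGs, at -0.538. With curcumin it was 0.320 above ethanol bees, and the sum was -0.217. It was followed by a region of 5 CpGs on linkage group 3 (11989616 to 11990098) at -0.515 and one of 6 on linkage group 1 (12492548 to 12493141) at -0.466. These were higher with curcumin than with ethanol by 0.305 and 0.218, and their sums were -0.210 and -0.248. The remaining members of the 5 lowest, with 6 CpGs on linkage group 11 (3686325 to 3687067) and 2 on linkage group 8 (7500046 to 7500057), were at -0.460 and -0.453, with sums of -0.198 and -0.227. The control bees enter both ethanol minus control, for which these 5 were picked, and the sum, so that sums below 0 follow in part from the choice.

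**Figure D2:**
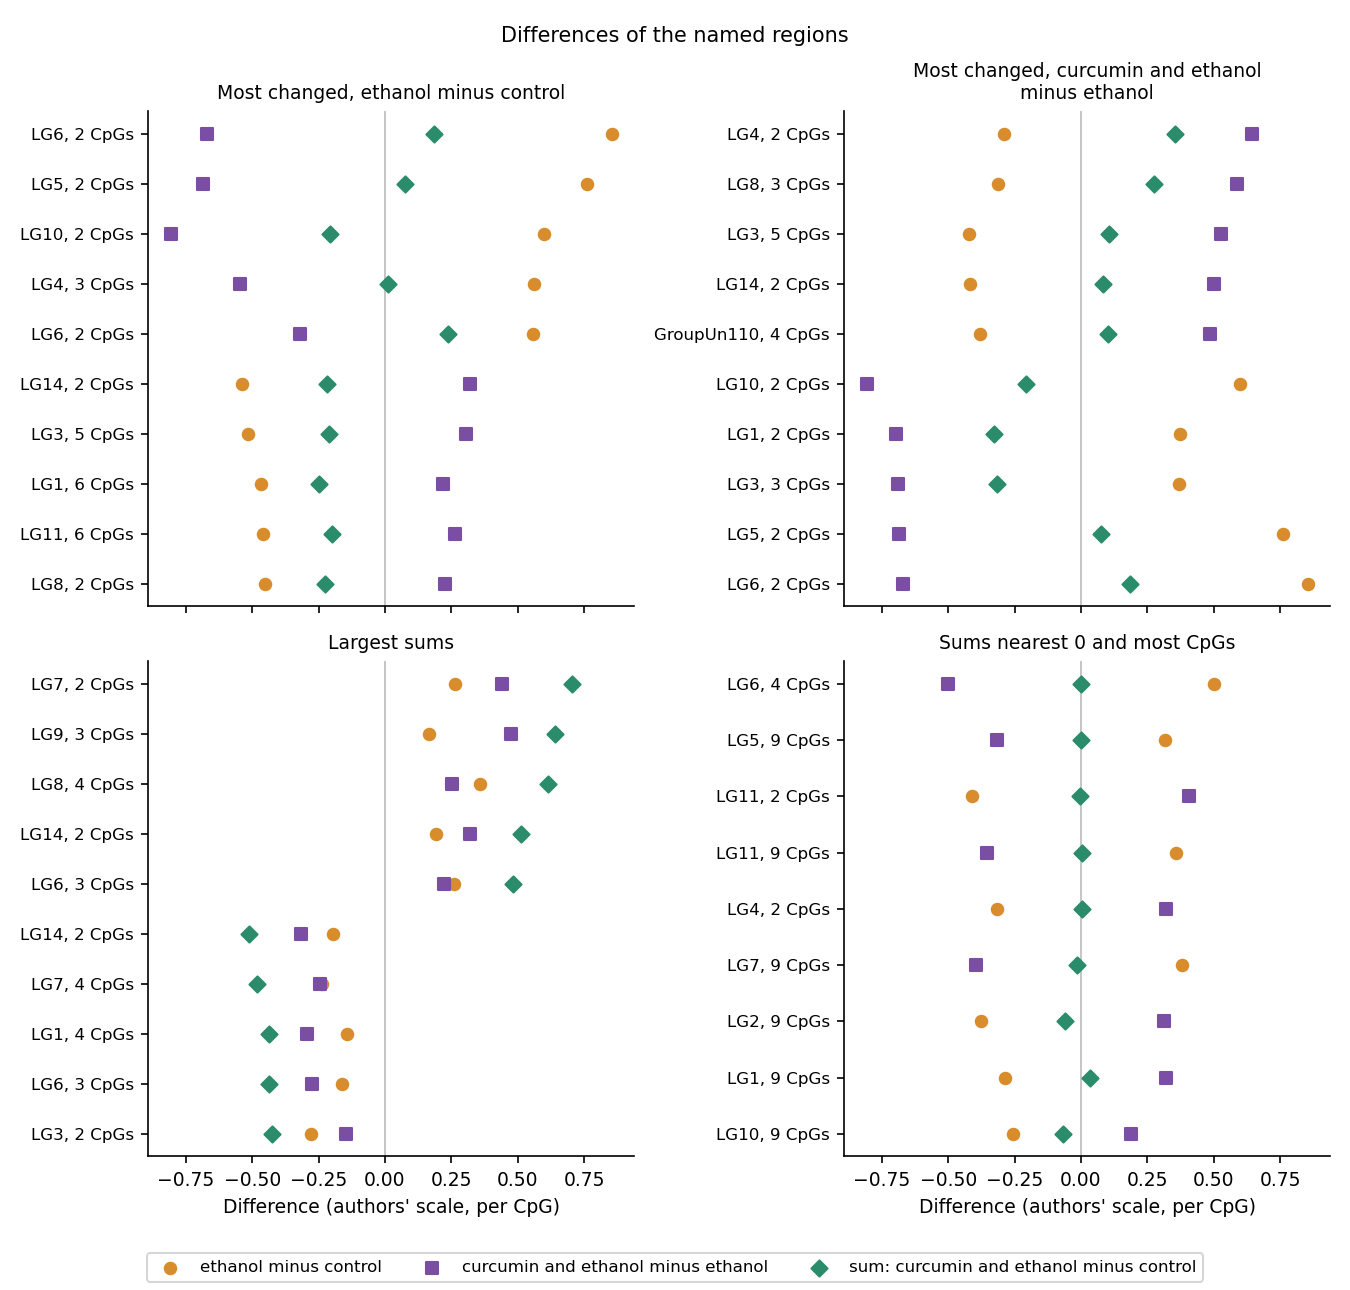
Difference per CpG (authors' scale, x axis) of the named regions, each row being 1 region given by its linkage group (LG) or scaffold and its number of CpGs; circles give ethanol minus control, squares curcumin and ethanol minus ethanol and diamonds their sum. In the upper panels the circle and the square lie on opposite sides of 0 and the diamond between them, and in the panel of largest sums both lie on the side of the diamond. The regions were picked by these values, and the ethanol bees enter circles and squares, so that these positions follow in part from the choice.

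In the 5 members where curcumin with ethanol was highest against ethanol, the ethanol bees were below the control bees. The ethanol bees enter both differences, and the curcumin and ethanol bees enter the sum too. Low ethanol bees and sums above 0 therefore follow in part from the choice. The largest such difference, 0.643 over 2 CpGs of linkage group 4 (12496378 to 12496431) in a cluster of 74, stood beside -0.289 for ethanol minus control, and the sum of 0.354 placed the curcumin and ethanol bees above the control bees. On linkage group 8, 3 CpGs from 13161058 to 13161183 gave 0.588, -0.312 and a sum of 0.276. The sums were nearer to 0 in the others. On linkage group 3 (2357291 to 2357595), 5 CpGs differed by 0.526 with curcumin and had a sum of 0.104. A pair on linkage group 14 (607383 to 607399) had 0.500 and 0.0821, and 4 CpGs of the unplaced scaffold GroupUn110 (62393 to 62832) had 0.484 and 0.103. The linkage group 14 pair lies 17893 bp before the pair at 625292 that was lowest with ethanol. The 2 pairs differed in the same directions, which follows in part from the choice of both.

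Among the members that were lowest with curcumin, a pair on linkage group 1 (22581380 to 22581462) and a region of 3 CpGs on linkage group 3 (11118411 to 11118636) were close to one another in value. Ethanol minus control was 0.371 and 0.370, curcumin and ethanol minus ethanol -0.697 and -0.688 and the sum -0.326 and -0.317. Curcumin and ethanol bees were below control bees at both of them, which again follows in part from the choice. The linkage group 10, 5 and 6 regions already given complete the 5 lowest.

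In the 5 highest and the 5 lowest sums both differences had the same direction, which follows in part from picking them by their sum. At 2 neighbouring CpGs on linkage group 7 (11215818 to 11215825), ethanol bees were 0.262 above control bees and curcumin and ethanol bees a further 0.441 above ethanol bees, and the sum of 0.703 was the largest. It was followed by 3 CpGs on linkage group 9 (4699342 to 4699546) with 0.167, 0.475 and a sum of 0.642. On linkage group 8, 4 CpGs spread over 533 bp (1835321 to 1835854) differed by 0.359 and 0.253, which gave a sum of 0.612. A pair on linkage group 14 (4582347 to 4582405) had a sum of 0.512, and a region of 3 CpGs on linkage group 6 (16013916 to 16014001) had 0.483.

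On the other side, the lowest sum, -0.512, came from 2 CpGs on linkage group 14 (4465469 to 4465756), which differed by -0.195 with ethanol and by a further -0.317 with curcumin. This pair lies 116591 bp before the linkage group 14 pair with the high sum. The 4 CpGs on linkage group 7 from 4836441 to 4836917 had almost equal differences of -0.238 and -0.245 and a sum of -0.483. Sums of -0.437, -0.436 and -0.424 belonged to regions of linkage groups 1 (10732276 to 10732382, 4 CpGs), 6 (210522 to 210600, 3 CpGs) and 3 (5791877 to 5792054, 2 CpGs).

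Sums closest to 0 were picked among the members with a difference of at least 0.3 between ethanol and control bees. After the linkage group 6 region with a sum of 0 came 9 CpGs on linkage group 5 (7087492 to 7088645), at 0.316, -0.317 and a sum of -0.00103. The sum was -0.00384 for 2 CpGs on linkage group 11 (10451778 to 10451790), where ethanol minus control was -0.409. The cluster of 53 CpGs around this pair holds another member, 970 bp before it (10450496 to 10450808), which was picked as its neighbour and was 0.433 higher with ethanol, with a sum of 0.0242. A region of 9 CpGs on linkage group 11 (1753683 to 1755174) had a sum of 0.00410 and a pair on linkage group 4 (4747973 to 4747998) one of 0.00521. Regions of 9 CpGs made up 2 of these 5. The 5 were drawn only from the 78 higher and 47 lower members past 0.3 with ethanol, and nothing is read from this number.

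By the listed mean difference these 5 sums were also near 0, the one farthest from it being -0.0285. Other named values moved more. At the linkage group 1 pair from 22581380, ethanol minus control was 0.199 in place of 0.371 and curcumin and ethanol minus ethanol -0.434 in place of -0.697. Ethanol minus control was 0.141 at the linkage group 7 pair with the highest sum and -0.142 at the linkage group 3 pair from 5791877, where the sum was -0.270 in place of -0.424. It was -0.195 in place of -0.312 at the linkage group 8 region from 13161058. The order of the sums also changed. The linkage group 7 pair from 11215818 had 0.476 in place of 0.703, below the 0.764 on linkage group 9 (from 4699342) and the 0.544 on linkage group 8 (from 1835321). The linkage group 14 pair from 4465469 had -0.410 in place of -0.512, less low than the -0.465 on linkage group 7 (from 4836441).

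The 7 members with 9 CpGs rest on the most CpGs. The one with the largest summed difference, on linkage group 7 (4383930 to 4384515), takes in all 9 CpGs of its cluster, and differed by 0.380 and -0.394, with a sum of -0.0145. The linkage group 5 region from 7087492 also spans its whole cluster of 9, and these were the only members to do so, 0.252% of the 793. For the linkage group 11 region from 1753683 to 1755174, which covers 1491 bp and 9 of 20 CpGs, the differences were 0.359 and -0.355. Of the 3 named regions of 9 CpGs that were lower with ethanol, those on linkage groups 2 (10972556 to 10974062), 1 (13953997 to 13955053) and 10 (11964266 to 11965368) were at -0.376, -0.284 and -0.257. Their differences with curcumin were 0.314, 0.319 and 0.189, and the sums -0.0617, 0.0348 and -0.0677. The sum farthest from 0 in a member of 9 CpGs was 0.0866 in size.

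The sizes varied unevenly with the number of CpGs. Of the members 390 had 2 CpGs and 199 had 3, while 97, 38, 34, 18, 10 and 7 had 4 to 9. From 2 to 9 CpGs, the median size of ethanol minus control was 0.189, 0.184, 0.206, 0.209, 0.228, 0.258, 0.199 and 0.316. For curcumin and ethanol minus ethanol it was 0.208, 0.211, 0.214, 0.233, 0.250, 0.230, 0.222 and 0.317. The median size of the sum was 0.0802, 0.0710, 0.0663, 0.0739, 0.0671, 0.0483, 0.0522 and 0.0348 in the same order, highest at 2 CpGs and lowest at 9 but not falling at every step. A sum of at least 0.3 in size was found in 38 of the 390 members of 2 CpGs (9.74%), 18 of the 199 of 3 (9.05%), 7 of the 97 of 4 (7.22%) and 3 of the 107 longer ones, 2 of these with 8 CpGs. The groups of 7 to 9 CpGs hold under 20 members each, so that their medians rest on few regions.

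**Figure D3:**
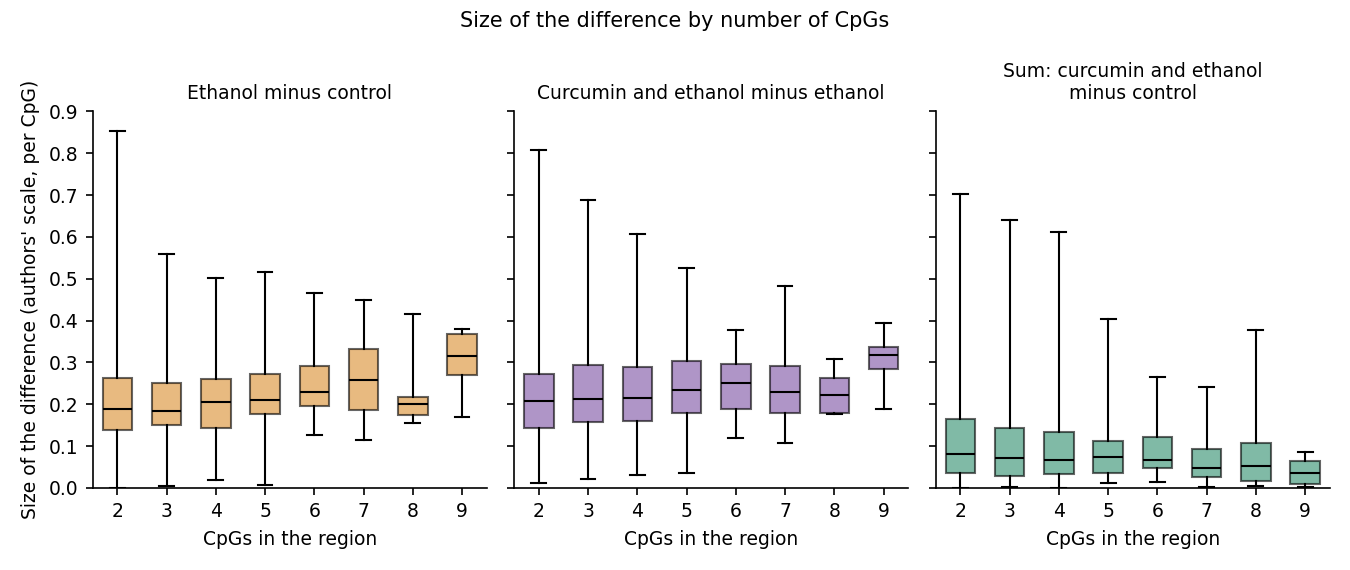
Size of the difference per CpG (authors' scale, y axis) by number of CpGs in the region (x axis) for ethanol minus control, curcumin and ethanol minus ethanol and their sum. Boxes span the quartiles with the median as a line and whiskers reach the lowest and highest member; the median of the sum is 0.0802 at 2 CpGs and 0.0348 at 9.

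Just outside the lower bound on length, the 1018 single CpGs with identical bounds had a median size of 0.177 with ethanol, 0.192 with curcumin and 0.1002 for the sum. Beyond the upper bound, the 5 regions of 10 CpGs had sums of -0.159, 0.00891, -0.000809, 0.242 and -0.0458. The 18 regions of 10 or more CpGs had a median size of the sum of 0.0842, above that of the members of 9 CpGs.

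Within a member the CpGs mostly differed in a single direction. The regions were themselves made from differences between these groups, so that a shared direction follows in part from how they were made. It is not read as a trait of the members. In 598 members (75.4%) no CpG went against the region between ethanol and control bees, and in 580 (73.1%) none did between curcumin and ethanol and ethanol bees, while 490 (61.8%) met this in both. Where CpGs of both directions were present, those against the region carried a median of 12.4% of the absolute summed difference with ethanol and 10.7% with curcumin. The regions of 9 CpGs on linkage group 11 (1753683 to 1755174) and linkage group 7 (4383930 to 4384515) were of a single direction in both comparisons. The sign of the listed mean difference was opposite to that of the plain difference per CpG in 25 members for ethanol minus control and in 9 for curcumin and ethanol minus ethanol, in 29 members in all. At 3 CpGs on linkage group 2 (2981060 to 2981162), chosen for this value, the mean difference was -7.56 and the difference per CpG -0.0682. The difference per CpG did not pass 0.865 in size in any region of either list, and was used throughout.

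The members were narrow, with a median width of 139 bp (quartiles 44 and 321 bp, longest 2422 bp), and lay in clusters with a median of 20 CpGs. Of the other regions of 2 to 9 CpGs listed for ethanol against control, 2837 overlapped a curcumin region of other bounds and 1745 overlapped none. Their median widths were 357 and 157 bp and their mean numbers of CpGs 4.02 and 3.31, against 3.06 in the members. At each number of CpGs from 2 to 8 the median width of the members was below that of regions with shifting bounds. Among regions of 2 CpGs the medians were 58 bp in members, 139 bp in regions with shifting bounds and 55 bp in those without a counterpart, and at 3 CpGs they were 171, 291.5 and 167 bp. At 6 CpGs the median of 593 bp in members was close to the 602.5 bp of regions with shifting bounds, and at 9 CpGs it was higher, at 1121 bp against 912 bp. None of these gaps was tested, since neighbouring regions are not independent.

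**Figure D4:**
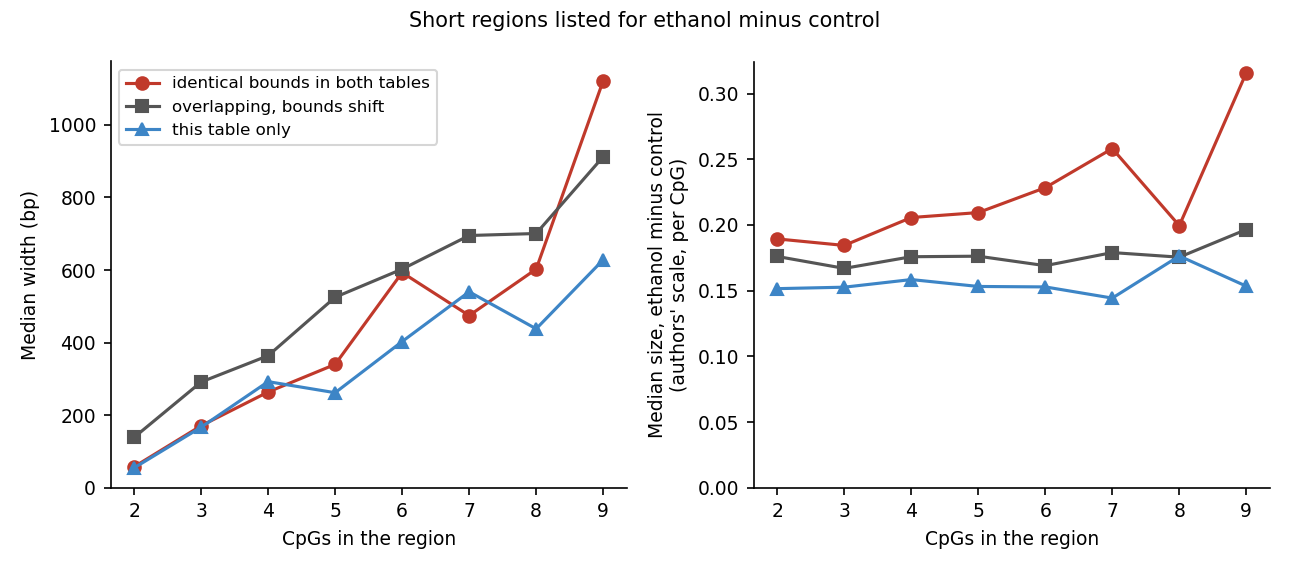
Median width (left, bp) and median size of ethanol minus control (right, authors' scale) by number of CpGs for the regions of 2 to 9 CpGs listed for ethanol against control, with 1 line each for the 793 members, the 2837 regions with shifting bounds and the 1745 without a counterpart. At 2 and 3 CpGs the members are as narrow as regions without a counterpart, and their median size is the highest of the 3 sets at every number of CpGs.

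The size of ethanol minus control was 0.194 in the members, 0.174 in regions with shifting bounds and 0.154 in regions without a counterpart (medians). Curcumin and ethanol minus ethanol had medians of 0.214, 0.193 and 0.167 in the corresponding sets of that list, of 793, 2814 and 2213 regions. Regions in which no CpG went against the region made up 58.9% of the regions with shifting bounds and 64.6% of those without a counterpart for ethanol minus control, beside the 75.4% of the members. For curcumin and ethanol minus ethanol the shares were 59.8% and 63.1%, beside 73.1%. At equal numbers of CpGs the order was not fixed. With ethanol at 2 CpGs the shares were 85.6% in members, 78.5% with shifting bounds and 79.1% without a counterpart, whereas at 8 CpGs the members were lowest, with 20.0% beside 28.8% and 36.4%. With curcumin at 3 CpGs the members were also lowest, with 63.3% beside 71.7% and 68.6%. Identity of bounds is set by where these differences start and end, so that the comparison is a description.

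The members lay in 716 CpG clusters, of which 641 held 1 member, 73 held 2 and 2 held 3. Where a cluster held 2 members, these were a median of 1139 bp apart. Of the 73 pairs, 30 (41.1%) had the same direction between ethanol and control bees and 25 (34.2%) between curcumin and ethanol and ethanol bees. These shares were close to the 42.2% of the 936 and 37.6% of the 1036 clusters with 2 listed regions of 2 to 9 CpGs, members or not. The sums had the same direction in 35 pairs (47.9%). In a cluster of 53 CpGs on linkage group 11, 3 members followed one another within gaps of 618 and 606 bp. The first, of 8 CpGs (13187798 to 13188374), was 0.197 higher with ethanol, the second, of 3 CpGs (13188992 to 13189375), at -0.176, lower with ethanol, and the third, of 2 CpGs (13189981 to 13190215), 0.252 higher, so that the direction alternated along the cluster. With curcumin the differences were -0.239, 0.247 and -0.212, and the sums were -0.0412, 0.0715 and 0.0408. The other cluster with 3 members, of 22 CpGs on linkage group 6, had -0.165 (16631846 to 16631895), -0.112 (16633226 to 16633421) and 0.119 (16634840 to 16635053) for ethanol minus control, and sums of -0.0255, 0.0513 and 0.0960. Here the measure mattered, since the last region had 0.460 for ethanol minus control and a sum of 0.327 by the listed mean difference, and the middle sum was -0.0351. The middle sum of the linkage group 11 cluster was -0.0229 by that measure.

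Members were found on all 16 linkage groups, and 69 lay on 39 unplaced scaffolds. Linkage group 1, with 99 members, held 12.5% of them, beside 11.9% of all regions of 2 to 9 CpGs listed for ethanol against control. The share was 10.6% beside 8.76% on linkage group 11 and 10.1% beside 8.56% on linkage group 8, and it was lower than that of the list on linkage groups 14 (2.90% beside 4.82%), 10 (4.16% beside 5.95%) and 5 (5.55% beside 7.33%). Lower members outnumbered higher ones with ethanol on linkage groups 2 (18 higher and 32 lower) and 13 (6 and 11), among others. Higher ones outnumbered lower ones on linkage groups 3 (33 and 22) and 9 (21 and 11), among others. Directions were not counted over all listed regions of a linkage group, so that nothing is read from these imbalances. The median size of the sum ran from 0.0347 on linkage group 4 to 0.133 on linkage group 14, followed by 0.131 on linkage group 6. The sum reached 0.3 in size in 8 of the 47 members on linkage group 6, in 3 of the 17 on linkage group 13 and in 3 of the 80 on linkage group 8. Over all 793 members it was at least 0.3 in 4.29% and at most -0.3 in 4.04%, beside 6.07% and 5.63% of all 1829 regions with identical bounds. The counts ran from 2 to 9 per linkage group, so that nothing is read from these extremes.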

How the data were processed

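WGBS reads were trimmed by the authors with Trimmomatic and aligned to Amel 4.5 with Bismark (version 0.16.3 in the submitters' processing notes) and Bowtie (1.0.0). After removal of duplicates, a CpG was kept where its coverage averaged 6 or more and 3 samples or more reached 10% methylation. Methylation levels were arcsine transformed and regions made with bumphunter in R (3.5.3). The difference scores per region (a mean, and sums over CpGs) were deposited by the authors, and their scale is not named. Every listed mean difference was at least 0.1 in size. The sign of the sums was opposite to that of the means in most regions, so that the sum divided by the number of CpGs was turned. After this the signs still differed in 406 of the 8887 regions for ethanol and in 255 of the 9689 for curcumin, where the direction depends on the measure.

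The lists also hold p values, false discovery rates and sums over individually significant CpGs, which are results of the authors' tests and were not used. No test was run. Members and the rule for named regions (the 5 highest and lowest per quantity, the 5 sums nearest 0, the 3 longest per direction and clusters with 3 members) were chosen with earlier results of these data known. Regions in the lists overlapped where they shared at least 1 bp. Matching was tested on simulated lists. Alternatives were the measure, the number of CpGs, the overlap, the size limit, weighting by CpGs and 1 member per cluster. Python 3.11.15, numpy 2.4.6, pandas 2.3.3, scipy 1.17.1 and matplotlib 3.10.9 were used.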

Additional observations from a re-analysis of the deposited data

How the results depend on the processing

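Of 83 alternative values, 47 stayed within 1.5 times the value reported (shares, within its 95% Wilson interval) and 36 did not. Among the 47 was every median size under each alternative run. The Wilson interval takes regions as independent, which neighbouring regions are not, and holds no spread between bees. It served only as a bound. Regions of 3 to 9 CpGs numbered 403. Past 0.3 were 37 higher and 25 lower for ethanol minus control, 40 and 53 for curcumin and ethanol minus ethanol, and 13 and 15 for the sum, and 65.5% and 59.6% were of a single direction in the 2 comparisons. With any number of CpGs there were 1829 regions, of which 164 were higher and 141 lower, 174 and 209, and 111 and 103 in the same order, with 88.7% and 87.9% of a single direction. Matching regions by a shared 50% of each one's length, in place of identical bounds, gave 1302 pairs, in which the sum was at least 0.3 in 53 and a single direction held in 67.1% and 63.3%; the same CpGs then no longer enter both differences. These counts rest on other sets of regions by construction. With a limit of 0.2, the members past it were 214 and 164, 208 and 238, and 65 and 67, and with a limit of 0.5 they were 10 and 2, 4 and 14, and 4 and 1. Allowing 5% of the absolute sum against the region raised the shares of a single direction to 80.8% and 79.7%. Leaving out the members whose listed mean difference and difference per CpG had opposite signs, chosen after seeing the data, left 764 and moved no value past these bounds. No paired analysis was possible because the lists hold no values of single bees, and for the same reason no bee could be left out.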
